A study of Mus musculus with 8 samples.

Results

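The genes described here carry out cholesterol synthesis, its feedback control, and the movement, storage and efflux of sterol, as measured in mouse kidney RNA. They were chosen by symbol, 31 genes out of the 30153 gene rows measured, and all 31 were found through their Ensembl identifiers. The kidneys came from C57/BL6 mice that overexpress the human angiotensin receptor type 1 gene in its Haplotype-II form and were fed a western diet. There were 4 adult and 4 aged animals, each giving 1 library, and the design sets adult against aged kidneys. All 8 animals shared the transgene and the diet, so an effect of either cannot be read from these libraries. The labels give neither the ages, the sexes nor the promoter of the transgene. Levels are in TPM, a relative abundance scaled by transcript length, so different genes can be set side by side. The number of reads behind each value is unknown. Libraries are named below by age group and replicate number.

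Cells keep membrane cholesterol within narrow limits through a feedback loop in the endoplasmic reticulum. When sterol is low, the escort protein Scap carries the transcription factor SREBP-2, the product of Srebf2, to the Golgi, where it is cut free and switches on genes of the mevalonate pathway. When sterol is high, Insig proteins hold the complex back, while oxysterols activate the liver X receptors (LXR), which switch on the exporters Abca1 and Abcg1. Kidney tubule cells both make cholesterol and take it up, and cholesterol ester deposits in kidney have been described in animals on fat-rich diets.

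The promoters of 25 of the 31 genes were found in a RefSeq table (GRCm38.p6) as windows of 250 bases before to 50 bases after the annotated start. They are shown for the members that carry the letters of either control arm, to give the sequence beside the expression values that follow. The core of the sterol regulatory element bound by SREBP-2, searched as CACNCCAC on both strands, occurred in 3 of the 25 (12%), against 7.12% of 27025 genes with such a window. The longer form of this element, which contains the core after 2 further letters, was in 0 of the 25, against 0.27%. An LXR direct repeat, searched on both strands as GGTCA or GGTTA followed after 5 letters by GGTCA or GGTTA, was in 1 of the 25 (4%), against 0.241%. The CCAAT box, CCAAT on both strands, was in 20 of the 25 (80%), against 41.1%. These are matches of letters in one window, and binding was not measured. In the sequences below, written 5′ to 3′ on the gene's strand, capitals mark the sterol element core in Hmgcs1 (chr13:119690101-119690400, plus strand), Insig1 (chr5:28071162-28071461, plus strand) and Acat2 (chr17:12960676-12960975, minus strand), and the direct repeat in Abca1 (chr4:53159846-53160145, minus strand), which is shown because its match was seen. A core that reads GTGGCGTG lies on the opposite strand.
Hmgcs1: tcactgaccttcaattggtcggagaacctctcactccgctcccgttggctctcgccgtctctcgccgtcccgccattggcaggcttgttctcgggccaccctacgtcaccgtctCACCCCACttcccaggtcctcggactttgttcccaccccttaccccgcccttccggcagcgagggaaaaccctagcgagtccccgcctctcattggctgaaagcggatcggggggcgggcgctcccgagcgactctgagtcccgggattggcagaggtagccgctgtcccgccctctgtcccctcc
Insig1: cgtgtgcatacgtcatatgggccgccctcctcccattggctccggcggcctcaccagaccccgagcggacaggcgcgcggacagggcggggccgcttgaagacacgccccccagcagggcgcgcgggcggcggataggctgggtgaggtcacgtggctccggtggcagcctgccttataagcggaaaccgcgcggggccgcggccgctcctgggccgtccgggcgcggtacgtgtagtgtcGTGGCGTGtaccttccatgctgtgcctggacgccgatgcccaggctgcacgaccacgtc
Acat2: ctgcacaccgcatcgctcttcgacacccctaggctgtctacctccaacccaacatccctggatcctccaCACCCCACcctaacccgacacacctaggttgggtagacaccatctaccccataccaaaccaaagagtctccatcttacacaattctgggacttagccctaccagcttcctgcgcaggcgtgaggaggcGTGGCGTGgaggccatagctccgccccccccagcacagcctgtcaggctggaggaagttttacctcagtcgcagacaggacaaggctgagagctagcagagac
Abca1: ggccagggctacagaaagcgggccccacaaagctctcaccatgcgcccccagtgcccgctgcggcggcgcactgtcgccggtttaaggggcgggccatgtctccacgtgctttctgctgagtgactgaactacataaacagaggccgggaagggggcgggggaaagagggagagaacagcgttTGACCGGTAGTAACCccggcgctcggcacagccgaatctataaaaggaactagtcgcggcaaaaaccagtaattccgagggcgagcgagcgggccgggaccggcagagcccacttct

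The libraries differed in ways that touch most of these genes. Adult replicate 1 held the highest value of 18 of the 31 genes and aged replicate 2 of 5, while aged replicate 3 held the lowest of 11, adult replicate 3 of 9 and aged replicate 1 of 7. The median log2 ratio of the 31 genes to their own means was 0.58 in adult replicate 1, 0.29 in aged replicate 2, −0.40 in adult replicate 3 and −0.52 in aged replicate 3. Over all genes the same median was 0.48, 0.30, −0.54 and −0.64 in those libraries. Mitochondrially encoded transcripts took 19.6% to 26.1% of the TPM scale in adult and 26.8% to 46.9% in aged libraries, which lowers every other gene on that scale. Summed Y-linked transcripts lay at 0.485 to 2.30 TPM in replicates 1 and 2 of either age, and at 34.7 to 50.6 TPM in replicates 3 and 4. The tissue carried its defining markers, with 8 of 8 proximal tubule genes measured and their summed level at 3544, 1645, 1027 and 2071 TPM in adult replicates 1 to 4 and 1129, 2821, 1056 and 2208 TPM in aged ones. These sums were highest in the 2 libraries where most of the cholesterol genes were high, adult replicate 1 and aged replicate 2. Marker sums of thick ascending limb, distal convoluted tubule and podocyte were also highest in those 2 libraries. Those of collecting duct, endothelium and macrophage were not. The part of cell content in the results below was not tested. In bulk tissue, fewer cells of a type and less RNA per cell cannot be told apart. The adrenal cortex, which makes steroids from cholesterol and adjoins the kidney, had Cyp11b1 and Cyp11b2 at 0 in all libraries and a sum over 7 markers of 0.380 to 1.90 TPM.

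**Figure D1:**
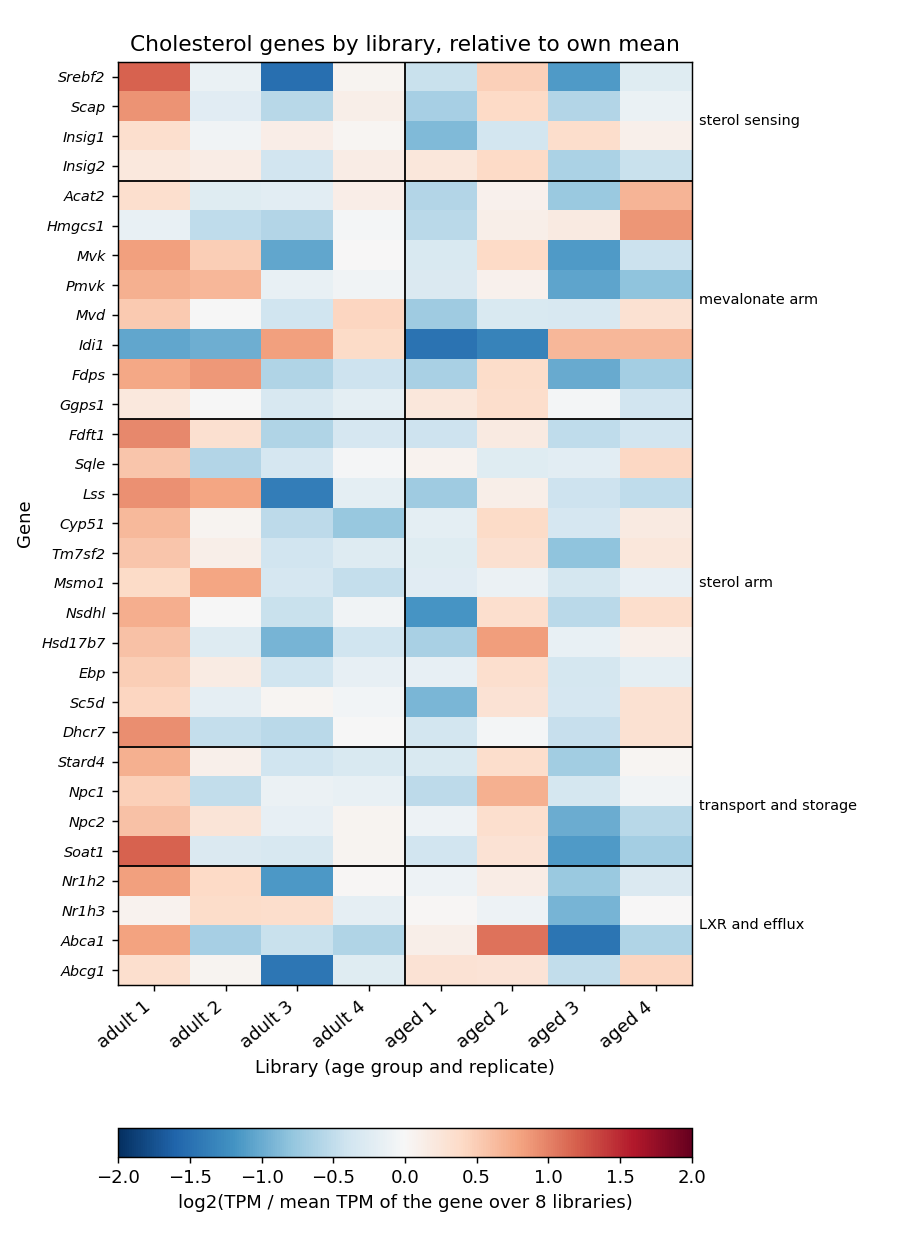
Each cell is the log2 ratio of a gene's TPM in 1 library to that gene's mean TPM over the 8 libraries, with genes in rows by role and libraries in columns, adult left of the vertical line. Adult replicate 1 is high in 29 of 31 rows, and Idi1 is high in replicates 3 and 4 of both groups. Rows above their own mean number 4 and 11 of 31 in adult replicates 3 and 4, and 3 and 15 in aged ones.

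Age gave no call among the cholesterol genes. Each was compared by limma on log2(TPM + 1), with p adjusted over the 11796 genes with a mean of at least 1 TPM, and all 31 genes entered the test. At a limma adjusted p under 0.05, 0 of the 31 were called, against 0% of all genes tested, and each of the 31 had a limma adjusted p of 1.00. Before adjustment, 1 of the 31 lay under 0.05, against 3.39% of all genes. In TPM as deposited, 0 of the 31 had groups that did not overlap, against 2.46% of all genes. Such genes numbered 3 of 31 with size factors (9.68%, against 5.02% of all genes) and 1 of 31 with quantile normalization (3.23%, against 4.51%). The simulated data showed that this test recovered 13.7% of genes changed 2-fold and 73.2% of those changed 4-fold, so the 0 calls do not show that nothing changed. The changed genes were drawn only from those at about 5 TPM or more, so these rates do not cover members below that level. The log2 fold change, aged minus adult, was negative for 23 of the 31, against 65% of all genes, with a median of −0.20 against −0.11. With mitochondrial genes removed and TPM rescaled, 13 of 31 were negative, against 31.6% of all genes, with a median of 0.07 against 0.14. With size factors, 23 were negative, against 52.7% of all genes, with a median of −0.11 against −0.02. Without adult replicate 1 the median was −0.03, against 0.04 for all genes.

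**Figure D2:**
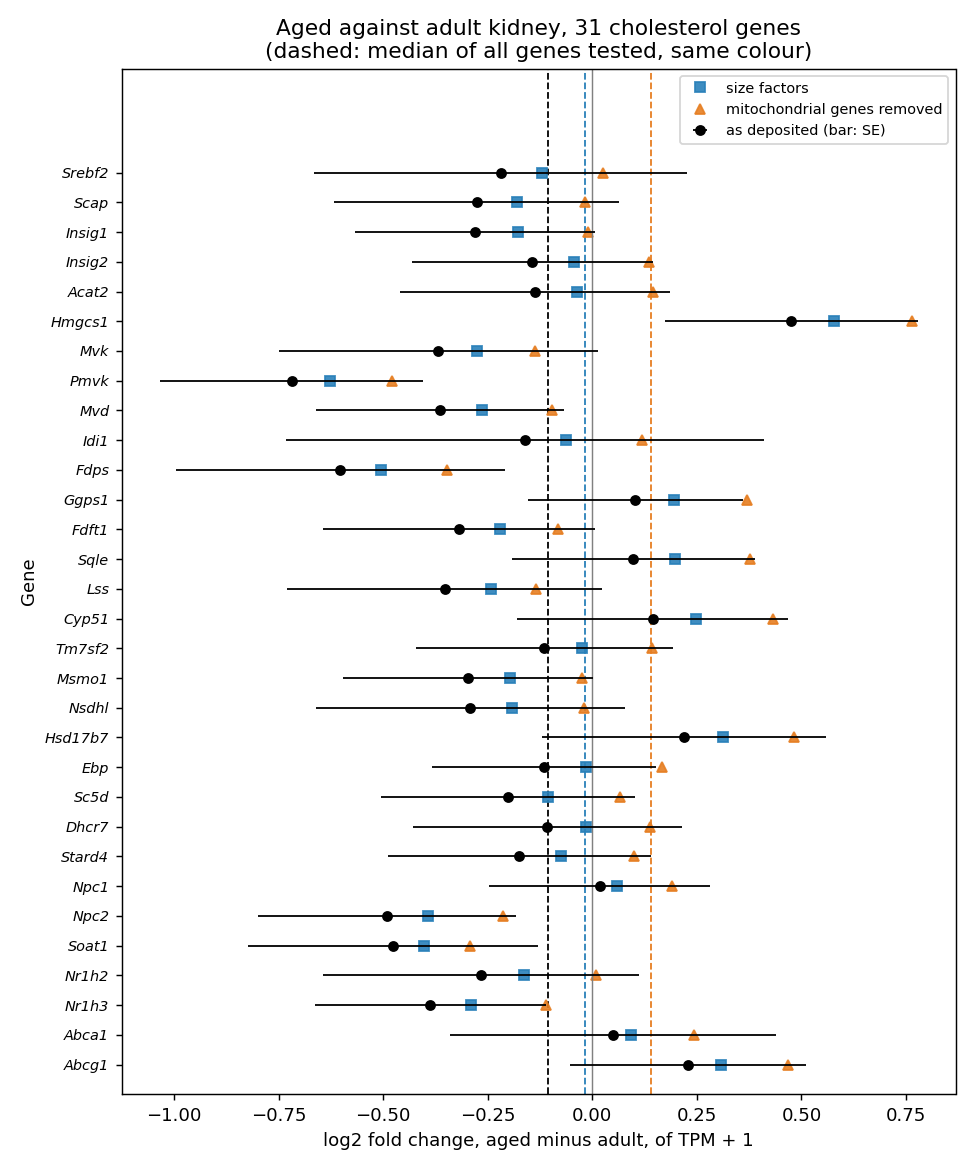
Points give the log2 fold change of TPM + 1, aged minus adult, for each of the 31 genes as deposited (black, with SE), with size factors (blue) and with mitochondrial genes removed (orange), and dashed lines give the median of all genes tested in the same colour. Hmgcs1 lies farthest to the right (0.48 as deposited) and Pmvk farthest to the left (−0.72), and the orange points sit to the right of the black ones.

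Of the genes that sense sterol, all 4 had lower log2 means in aged kidneys as deposited, and none passed. Srebf2, on chromosome 15 at 82147181 to 82205379, had 13.3, 5.36, 2.06 and 6.15 TPM in adult replicates 1 to 4 and 4.34, 8.23, 2.68 and 4.98 TPM in aged ones. Adult replicate 1 stood above the rest, and the groups overlapped across most of their range (log2 fold change −0.22, SE 0.45). Without that library the value was 0.15. Scap, the escort, was likewise highest in adult replicate 1 and next highest in aged replicate 2, with 18.3, 8.36, 6.69 and 10.7 TPM in the adult set and 6.19, 12.9, 6.56 and 8.95 TPM in the aged set (−0.28, SE 0.34). Leaving out adult replicate 1 took Scap to −0.019. Insig1, itself a target of SREBP-2 and on chromosome 5 at 28071363 to 28078662, had 18.4, 14.0, 16.0 and 15.1 TPM in the adult set and 7.95, 11.4, 18.7 and 15.7 TPM in the aged set. The low aged values were those of replicates 1 and 2, while aged replicate 3 was the highest of all 8 libraries (−0.28, SE 0.29). Among the 4 libraries under 10 Y-linked TPM the log2 fold change of Insig1 was −0.70, and among the 4 over it 0.14. That difference was not tested. Insig2, the other Insig gene, had 29.2, 27.9, 19.3 and 27.9 TPM in the adult set and 29.4, 33.0, 16.2 and 18.4 TPM in the aged set (−0.14, SE 0.29). Insig2 was the most abundant of the 4, at a mean of 25.2 TPM over all libraries, against 14.7 for Insig1, 9.82 for Scap and 5.89 for Srebf2. Summed over the 4, the level was 59.6 ± 14.6 TPM in the adult set and 51.4 ± 9.57 TPM in the aged set (SD, n = 4 each).

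The mevalonate arm turns acetyl-CoA into the isoprenoid farnesyl diphosphate, and it held both the highest and the lowest log2 fold change of the 31 genes. Hmgcs1, the cytosolic HMG-CoA synthase on chromosome 13 at 119690379 to 119708260, had 66.6, 52.1, 48.9 and 71.9 TPM in the adult set and 51.0, 80.0, 83.9 and 136 TPM in the aged set. Aged replicates 2, 3 and 4 lay above all adult libraries, and aged replicate 1 lay below 3 of them. The means were 59.9 ± 11.1 and 87.6 ± 35.2 TPM (SD, n = 4 each), with a log2 fold change of 0.48 (SE 0.30, limma adjusted p = 1.00). The value was 0.24 without aged replicate 4, which held the highest level, and 0.70 without aged replicate 1. With mitochondrial genes removed it was 0.76. Among the 4 libraries under 10 Y-linked TPM it was 0.12, with overlap, and among the 4 over it 0.84, without overlap, and that difference was not tested. Among those 4 over it, 28.6% of all genes and 8 of the 31 (25.8%) were without overlap. The log2 fold change of Hmgcs1 was positive under all 22 alternatives. Hmgcs1 was the most abundant of the 31 genes, at a mean of 73.8 TPM.

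Pmvk, the phosphomevalonate kinase on chromosome 3 at 89454541 to 89469013, was the only one of the 31 under 0.05 before adjustment (limma adjusted p = 1.00). It had 17.0, 16.5, 9.37 and 9.92 TPM in the adult set and 8.55, 11.1, 5.05 and 5.95 TPM in the aged set. Aged replicate 2 lay above the 2 lower adult libraries, so the groups overlapped as deposited (13.2 ± 4.12 and 7.66 ± 2.74 TPM, SD, n = 4 each, log2 fold change −0.72, SE 0.31). With size factors Pmvk ranged from 10.4 to 14.3 in adult and from 6.07 to 8.46 in aged libraries, without overlap, with a limma adjusted p of 0.630. Within each Y-linked class the 2 aged libraries lay below the 2 adult ones, with log2 fold changes of −0.72 under and −0.71 over 10 Y-linked TPM. The class as a covariate gave an SE of 0.18 and a limma adjusted p of 0.389, the lowest of the alternatives, whose highest was 1.00. The difference was smaller with mitochondrial genes removed (−0.48, with overlap) and with array weights (−0.55). Leaving out 1 library gave −0.90 to −0.56. The unadjusted p was not under 0.05 in 9 of the 22 alternatives, which were both of these, both Y-linked classes, and those without adult replicate 1 or 2 or aged replicate 1, 3 or 4. Groups without overlap were found for 13 of the 31 genes among the 4 libraries under that level (41.9%, against 27.7% of all genes) and for 8 among the 4 over it (25.8%, against 28.6%).

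Fdps, which makes farnesyl diphosphate, and Mvd, which makes the isoprene unit, had negative log2 fold changes in all 22 alternatives, of varying size. Fdps (chromosome 3 at 89093588 to 89101959) had 23.4, 25.0, 9.06 and 10.2 TPM in the adult set and 8.71, 17.7, 6.78 and 8.57 TPM in the aged set (−0.60, SE 0.39). Its value was −0.38 without adult replicate 2 and −0.35 with mitochondrial genes removed. Its high values were adult replicates 1 and 2 and aged replicate 2, all under 10 Y-linked TPM. Like Pmvk, Fdps was lower in the 2 aged than in the 2 adult libraries within each Y-linked class. Its log2 fold changes there were −0.90 under and −0.30 over 10 Y-linked TPM, where 27.7% and 28.6% of all genes separated. Mvd had 21.2, 14.7, 11.2 and 20.0 TPM in the adult set and 9.03, 12.0, 11.9 and 18.4 TPM in the aged set (−0.36, SE 0.30). Its value was −0.22 without aged replicate 1, −0.0965 with mitochondrial genes removed, and −0.0186 among the 4 libraries over 10 Y-linked TPM. The aged libraries were lower on average and lay within the adult range except for replicate 1. Mvk, the mevalonate kinase, averaged 6.72 ± 3.16 and 4.82 ± 2.08 TPM (SD, n = 4 each, −0.37, SE 0.38). Acat2, the cytosolic thiolase that starts the pathway, had 44.2, 29.7, 30.4 and 38.7 TPM in the adult set and 23.4, 37.2, 21.1 and 56.4 TPM in the aged set. Its highest and its lowest value were both in aged kidneys (−0.14, SE 0.32). Ggps1, which makes geranylgeranyl diphosphate for protein prenylation, averaged 6.45 ± 1.06 and 7.06 ± 1.52 TPM (0.10, SE 0.26).

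Idi1, the isopentenyl diphosphate isomerase on chromosome 13 at 8885501 to 8892451, followed the Y-linked split and not age. It had 15.7, 16.5, 57.4 and 42.3 TPM in the adult set and 11.6, 12.8, 51.1 and 51.5 TPM in the aged set. Replicates 3 and 4 of both groups lay above replicates 1 and 2 of both, at means of 50.5 and 14.1 TPM. This split was noticed in the data and is given without a test. Most genes that separated by it ran the other way, with 21.3% of all genes tested lower in replicates 3 and 4 without overlap and 1.35% higher. Of the 31 genes, Ggps1 was lower without overlap (5.17 to 6.55 against 6.70 to 8.60 TPM) and Idi1 was higher, while the other 29 overlapped. Between age groups Idi1 averaged 33.0 ± 20.4 and 31.7 ± 22.6 TPM (SD, n = 4 each, log2 fold change −0.16, SE 0.57). Its SE was the largest of the 31 genes.

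**Figure D3:**
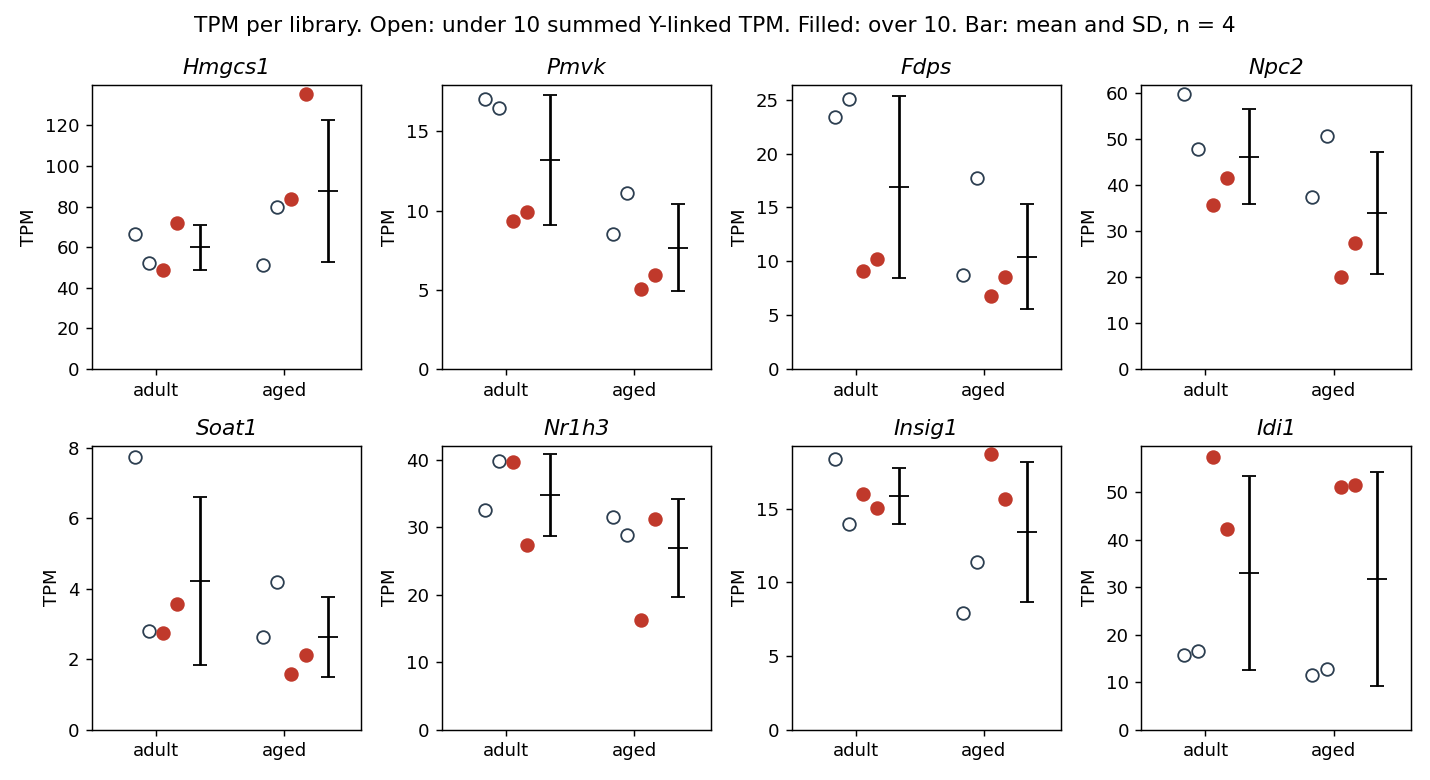
TPM of 8 cholesterol genes in each library, adult left and aged right, with open points for the 4 libraries under 10 summed Y-linked TPM, filled points for the 4 over it, and bars for the mean and SD (n = 4). The filled points of Idi1 sit between 42.3 and 57.4 TPM and the open ones between 11.6 and 16.5. Pmvk and Fdps are both lower in aged than in adult libraries within both kinds of point.

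The sterol arm runs from farnesyl diphosphate to cholesterol, and 8 of its 11 enzymes had negative and 3 positive log2 fold changes, with none past the test. The median was −0.12, next to −0.11 for all genes. Cyp51, the lanosterol demethylase on chromosome 5 at 4081145 to 4104746, was the most abundant, with 95.8, 63.3, 42.1 and 36.1 TPM in the adult set and 52.9, 79.2, 48.1 and 69.0 TPM in the aged set (0.14, SE 0.32). Adult kidneys held both its highest and its lowest value. Ebp, the sterol isomerase, had 61.4, 48.4, 32.9 and 39.0 TPM in the adult set and 38.7, 55.0, 33.9 and 38.1 TPM in the aged set (−0.12, SE 0.27). Nsdhl, a sterol dehydrogenase, had 36.7, 22.2, 16.4 and 21.3 TPM in the adult set and 9.87, 28.1, 15.3 and 28.3 TPM in the aged set (−0.29, SE 0.37). Without aged replicate 1 the value of Nsdhl was −0.00535. Aged replicate 1 was the lowest of the 8 for Nsdhl and also for Sc5d, the sterol desaturase (6.70 TPM, against 9.98 to 17.1 TPM elsewhere). Msmo1, the methylsterol oxidase, had 21.8, 29.1, 13.3 and 12.1 TPM in the adult set and 14.3, 15.4, 13.1 and 14.9 TPM in the aged set. The aged libraries lay close together, near the 2 lower adult ones (19.1 ± 7.96 and 14.4 ± 1.02 TPM, SD, n = 4 each, −0.30, SE 0.30).

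The other enzymes of this arm overlapped between groups. Fdft1, the squalene synthase, averaged 5.86 ± 2.92 TPM in the adult set and 4.22 ± 1.00 TPM in the aged set, and Lss, which closes the sterol ring system, 4.13 ± 2.41 and 2.67 ± 0.697 TPM (SD, n = 4 each). Their log2 fold changes were −0.32 (SE 0.33) and −0.35 (SE 0.38), and both had their highest value in adult replicate 1. Without it they were −0.07 and −0.13. Sqle, the squalene epoxidase and a rate-controlling step, averaged 12.1 ± 4.37 and 12.7 ± 2.76 TPM (0.10, SE 0.29). Hsd17b7, a sterol ketone reductase, averaged 3.47 ± 1.61 and 4.21 ± 1.87 TPM (0.22, SE 0.34), and Dhcr7, which makes the last double bond reduction of one branch, 4.63 ± 2.44 and 3.99 ± 1.00 TPM (−0.11, SE 0.32). The sterol reductase Tm7sf2 averaged 8.08 ± 2.48 and 7.45 ± 2.41 TPM (−0.11, SE 0.31). For these genes the group means differed by less than the larger of the 2 SDs.

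Summed over the 19 enzymes, the 2 age groups had nearly equal levels, 388 ± 77.9 TPM in the adult set and 382 ± 94.0 TPM in the aged set (SD, n = 4 each). The sums were 499, 379, 318 and 358 TPM in the adult set and 279, 421, 337 and 493 TPM in the aged set, so the 2 highest were 1 adult and 1 aged library. With mitochondrial genes removed the sums averaged 550 ± 101 and 665 ± 170 TPM. Hmgcs1 took 13.4%, 13.8%, 15.4% and 20.1% of the enzyme sum in adult and 18.3%, 19.0%, 24.9% and 27.5% in aged libraries. Adult replicate 4 lay above the 2 lower aged libraries, and within each Y-linked class both aged shares lay above both adult ones. Hmgcs1 was not alone in this, as the aged shares of Pmvk, Fdps, Mvk and Fdft1 lay below the adult ones in both classes. In TPM, 27.7% of all genes separated by age in the class under 10 Y-linked TPM and 28.6% in the class over it. Shares of the same sum are tied, so a larger Hmgcs1 share leaves less for the others. Pmvk took 2.77% to 4.35% of the sum in adult and 1.21% to 3.07% in aged libraries. These shares do not depend on the scale of a library, and they were chosen after the levels had been seen, so no test is given.

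**Figure D4:**
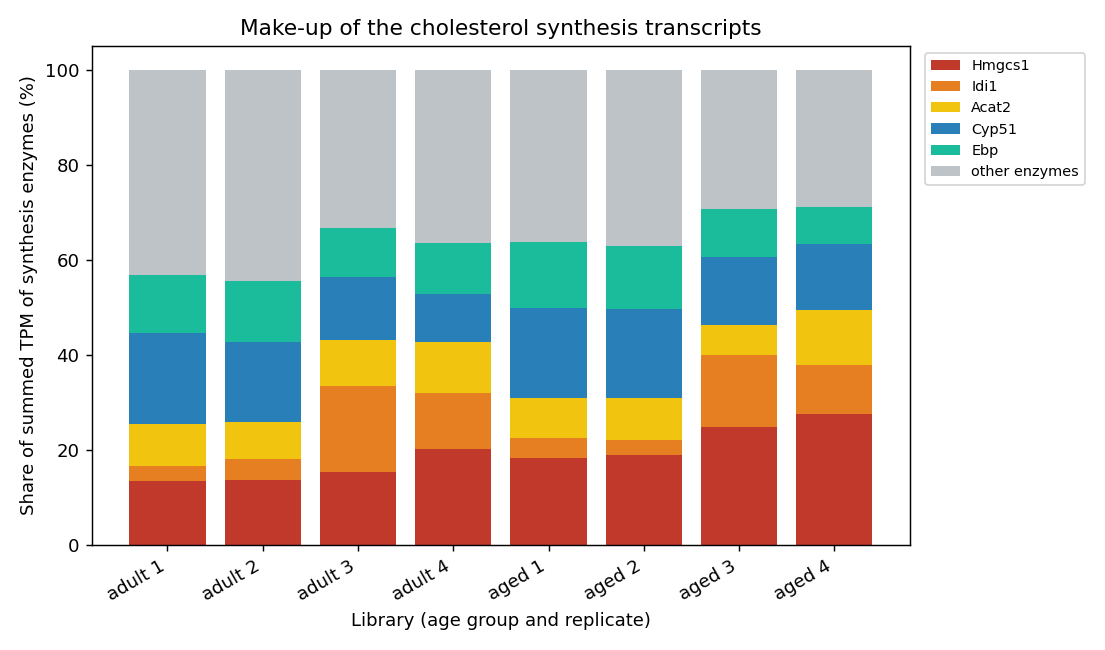
Stacked bars give the percent of the summed TPM of the 19 synthesis enzymes taken by 5 abundant enzymes and by the remaining 14 together, for each library. The Hmgcs1 segment spans 13.4% to 20.1% in adult and 18.3% to 27.5% in aged libraries, and the Idi1 segment is widest in replicates 3 and 4 of both groups.

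Genes that move and store cholesterol had a median log2 fold change of −0.33, the lowest of the 5 roles, with 3 of 4 negative and none past the test. Npc2, the lysosomal protein that hands cholesterol to Npc1, had 59.7, 47.8, 35.5 and 41.5 TPM in the adult set and 37.3, 50.6, 20.1 and 27.3 TPM in the aged set. Aged replicates 3 and 4 lay below all adult libraries (46.1 ± 10.3 and 33.8 ± 13.2 TPM, SD, n = 4 each, −0.49, SE 0.31). With size factors the groups did not overlap, at 40.2 to 48.7 in adult and 27.8 to 38.5 in aged libraries (log2 fold change −0.39, limma adjusted p = 0.689, and 0.548 to 1.00 over the alternatives). With mitochondrial genes removed Npc2 overlapped, at −0.21, and without aged replicate 3 its value was −0.28. Size factors left 5.02% of all genes without overlap, and 3 of the 31, the third being Abcg1. Soat1, which esterifies cholesterol for storage, had 7.76, 2.81, 2.74 and 3.56 TPM in the adult set and 2.62, 4.20, 1.57 and 2.14 TPM in the aged set. Adult replicate 1 was far above the rest, and the log2 fold change of −0.48 (SE 0.35) came to −0.20 when that library was left out. Summed over the 4 genes of this role, the level was 71.4 ± 20.2 and 54.9 ± 19.2 TPM, and with size factors the sums ran from 61.9 to 73.2 in adult and from 49.6 to 61.1 in aged libraries. With mitochondrial genes removed these sums overlapped, at 77.1 to 139 TPM in adult and 70.5 to 121 TPM in aged libraries. Npc2 was the most abundant of the 4, at a mean of 39.95 TPM, against 18.7 for Stard4, 3.42 for Soat1 and 1.08 for Npc1. With size factors, Stard4, Soat1 and Npc1 each overlapped between groups. Stard4, a cytosolic sterol carrier, averaged 20.0 ± 7.59 and 17.4 ± 5.26 TPM (−0.17, SE 0.32). Npc1, the membrane partner of Npc2, was the least abundant of the 31, at 1.06 ± 0.310 and 1.10 ± 0.464 TPM (0.02, SE 0.26).

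The LXR genes and their exporter targets gave mixed directions, 2 negative and 2 positive, with none past the test. Nr1h3, encoding LXR alpha, had 32.5, 39.8, 39.6 and 27.3 TPM in the adult set and 31.5, 28.8, 16.2 and 31.2 TPM in the aged set. Aged replicate 3 was the lowest of all, and the others lay within the adult range (34.8 ± 6.04 and 26.9 ± 7.25 TPM, SD, n = 4 each, −0.39, SE 0.28). Without that library the value was −0.17. Nr1h2, encoding LXR beta, averaged 21.8 ± 10.5 and 16.5 ± 4.05 TPM (−0.27, SE 0.38), and was at −0.0161 without adult replicate 1. Abca1, which loads cholesterol onto apolipoprotein particles and carries the direct repeat printed above, lies on chromosome 4 at 53030787 to 53159895. It had 3.97, 1.44, 1.68 and 1.51 TPM in the adult set and 2.48, 4.85, 0.830 and 1.51 TPM in the aged set. Adult replicate 1 and aged replicate 2 were high, and the log2 fold change of 0.05 (SE 0.39) took both signs, from −0.25 without aged replicate 2 to 0.30 without aged replicate 3. Abcg1, which exports cholesterol to mature lipoproteins, had 1.81, 1.48, 0.522 and 1.21 TPM in the adult set and 1.74, 1.73, 1.02 and 1.93 TPM in the aged set (0.23, SE 0.28). Adult replicate 3 was the lowest. With size factors the aged values of Abcg1, 1.31 to 1.97, lay above the adult ones, 0.716 to 1.28 (log2 fold change 0.31, limma adjusted p = 0.77). That scaling left 5.02% of all genes without overlap. The Abcg1 groups overlapped as deposited, and also when scaled by quantiles or after mitochondrial genes were taken out. Both receptors were more abundant than both exporters in every library. Of macrophages, cells in which these exporters are prominent, 7 of 7 markers were measured. Their summed levels were 129 to 235 TPM in the adult set and 65.6 to 320 TPM in the aged set. The 320 TPM was that of aged replicate 1, where Lyz2 alone had 215 TPM. The part of macrophages in the exporter values was not tested.

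Other genes of sterol metabolism were taken from a list of 38, covering SREBP processing, other sterol enzymes, users of isoprenoids, uptake, intracellular transport, and ester or oxysterol metabolism. Of these 31 entered the test and 0 passed, against 0% of all genes, with 0 at an unadjusted limma p under 0.05, against 3.39%. Their log2 fold changes were negative for 20, against 65% of all genes, and positive for 11. The median was −0.09, against −0.11 for all genes. In TPM as deposited, 0 of them had groups without overlap, against 2.46% of all genes.

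Some of the 31 genes share sequence with other genes, so their values are uncertain where reads could be traded. Of the 31-base words in Acat2 transcripts, 43.7% also occurred in Acat3, a neighbouring copy with 10.8 to 18.8 TPM. Summed, Acat2 and Acat3 gave 60.3, 45.0, 41.2 and 56.9 TPM in the adult set and 35.0, 54.6, 32.6 and 75.2 TPM in the aged set. Idi1 shared 18.4% of its words with Gm13502, which had 0 to 3.56 TPM, and 8.18% with Gm35570, not analysed here. The part of shared reads in the Idi1 values was not tested. Fdps shared 24.6% with the overlapping Gm43738, not analysed here, and up to 16% with each of 3 further genes that were listed at 0. Fdft1 overlaps 774 bases of Ctsb on the other strand, and Mvd lies within Gm20388 on the other strand. Libraries were stranded per the labels, but the use of strand in quantification is not given in the sources used here. A remaining member that shared over 5% of its words with a measured gene above 0 was Tm7sf2, with 10.7% in the overlapping Vps51.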

How the data were processed

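Kidney RNA was sequenced from 8 animals with stranded libraries after polyadenylated RNA pull-down, per the labels' protocols. The deposited values are TPM, 1 column per library, whose totals lay between 924798 and 950974. Kallisto, DESeq2 and the build GRCm38 are listed without role or version, per the submitters' processing notes, and the annotation is not given in the sources used here. No TPM column lacked a sample. Symbols were found for 29732 of 30153 rows (98.6%), and 7 identifiers were summed with another of the same symbol. Coordinates are from GENCODE M21 on GRCm38.

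Genes averaging at least 1 TPM were transformed to log2(TPM + 1), and aged libraries were set against adult ones in limma 3.58.1 (trend option, R 4.3.3). Fold changes on this scale understate changes of low genes. P-values were Benjamini-Hochberg adjusted over 11796 genes at a threshold of 0.05. TPM are no counts, so no count model was run. The fit was tested on simulated data (10 runs, 200 changed genes among 11796, drawn from genes at about 5 TPM or more). TPM keeps no depth, so the precision is set by 4 libraries per group.

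The genes, their lists and the rule for naming them were chosen with earlier results of these data known. All 31 genes are named. Values in every library are given for the sterol sensing genes, the 3 most abundant enzymes of each arm, the 8 genes with the smallest p, any without overlap, Abca1 and Abcg1. Other pathway genes were to be named at an unadjusted p under 0.05 or without overlap, and Cyp7b1 is named outside that rule. Alternatives were pseudocounts of 0.1 and 5, no filter or a 5 TPM minimum mean, scaling by size factors, by quantiles or with mitochondrial genes removed, limma without trend, robust or with array weights, the replicate block, the Y-linked split at 10 TPM, and each library left out. Motifs were searched in RefSeq promoter windows, and shared sequence in 31-base words.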

Additional observations from a re-analysis of the deposited data

Results flagged for a closer look

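Within a group of 4 libraries, 1 library stood apart from the other 3 in 4 of the 62 combinations of gene and age group examined, where chance flags about 1 in 20. In adult kidneys these were Soat1 and Abca1, both in replicate 1, at 7.76 and 3.97 TPM, and Insig2 in replicate 3, at 19.3 TPM. In aged kidneys it was Fdft1 in replicate 2, at 5.71 TPM. In each case the gap to the nearest library as a share of the group's range passed Dixon's 95% critical value.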

How the results depend on the processing

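None of the 31 genes was called under any of the 22 alternatives. Of 675 log2 fold changes of single genes under them, 614 kept their direction and 61 reversed, and 11 genes never reversed, among them Hmgcs1, Pmvk, Fdps and Npc2. Over all genes, 0 were called as deposited (400 at an unadjusted limma p under 0.05), 1 with array weights, 3 among the 4 libraries under 10 Y-linked TPM, 16 among the 4 over it, and 0 to 2 with a library left out (1 without adult replicate 3 and 2 without aged replicate 1). Negative log2 fold changes numbered 13 with mitochondrial genes removed (41.9%, against 31.6% of all genes) and 12 among the 4 libraries over 10 Y-linked TPM (38.7%, against 54.9%). The medians there were reversed, at 0.0654 against 0.14 for all genes, and at 0.0134 against −0.0392. Groups without overlap numbered 3 of the 31 with size factors (9.68%, against 5.02% of all genes), 1 with quantile normalization (3.23%, against 4.51%), 13 among the 4 libraries under 10 Y-linked TPM (41.9%, against 27.7%) and 8 among the 4 over it (25.8%, against 28.6%). With a library left out they numbered 0 to 3, against 3.09% to 5.69% of all genes: Nr1h3 without adult replicate 4 (4.43%), Hmgcs1 without aged replicate 1 (4.94%), and Fdps, Pmvk and Soat1 when aged replicate 2 was dropped (5.69%). The cause of these changes was not tested. Among the 4 libraries over 10 Y-linked TPM, reversed values were those of Abca1 (−0.27), Acat2 (0.0134), Dhcr7 (0.16), Ebp (0.00453), Fdft1 (0.0121), Idi1 (0.0566), Insig1 (0.14), Lss (0.20), Msmo1 (0.13), Npc1 (−0.034), Nr1h2 (0.0326), Nsdhl (0.15), Srebf2 (0.00398), Stard4 (0.0237) and Tm7sf2 (0.0384). Among the 4 under it, reversed values were those of Cyp51 (−0.26), Hsd17b7 (−0.041), Insig2 (0.12) and Sqle (−0.0626). With mitochondrial genes removed, reversed values were those of Acat2 (0.14), Dhcr7 (0.14), Ebp (0.17), Idi1 (0.12), Insig2 (0.14), Nr1h2 (0.0092), Sc5d (0.0654), Srebf2 (0.025), Stard4 (0.10) and Tm7sf2 (0.14). With quantile normalization, reversed values were those of Acat2 (0.0633), Ebp (0.0878), Idi1 (0.0357) and Insig2 (0.0329). With array weights, reversed values were those of Dhcr7 (0.0233), Msmo1 (0.00951), Stard4 (0.085) and Tm7sf2 (0.13). Leaving out 1 library in turn took both signs for Abca1 (−0.25 to 0.30), Acat2 (−0.40 to 0.0558), Cyp51 (−0.0548 to 0.41), Dhcr7 (−0.25 to 0.16), Ebp (−0.26 to 0.0387), Idi1 (−0.49 to 0.19), Insig2 (−0.31 to 0.0224), Npc1 (−0.12 to 0.11), Sc5d (−0.35 to 0.0249), Sqle (−0.0517 to 0.30), Srebf2 (−0.59 to 0.15), Stard4 (−0.33 to 0.0454) and Tm7sf2 (−0.24 to 0.0792). The values that kept their sign when 1 library was left out were those of Abcg1 (0.0513 to 0.35), Fdft1 (−0.51 to −0.0695), Fdps (−0.87 to −0.38), Ggps1 (0.0123 to 0.22), Hmgcs1 (0.24 to 0.70), Hsd17b7 (0.00234 to 0.44), Insig1 (−0.45 to −0.0708), Lss (−0.69 to −0.13), Msmo1 (−0.47 to −0.075), Mvd (−0.54 to −0.22), Mvk (−0.67 to −0.15), Npc2 (−0.71 to −0.28), Nr1h2 (−0.63 to −0.0161), Nr1h3 (−0.49 to −0.17), Nsdhl (−0.48 to −0.00535), Pmvk (−0.90 to −0.56), Scap (−0.47 to −0.019) and Soat1 (−0.67 to −0.20). Same-numbered libraries did not deviate together in every pair (correlations 0.04, 0.18, 0.49 and 0.42), so the numbers were not taken to pair the samples. With the replicate block 0 genes were called. An unadjusted limma p under 0.05 was found for 2 of the 31, against 7.77% of all genes, namely Pmvk and Fdps (adjusted p = 0.577 and 0.629). TPM gives no read depth, so precision rests on 4 libraries per group.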

Other observations

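Cyp7b1, an oxysterol hydroxylase from the list of other pathway genes, was singled out after its values were seen because it divided the libraries as Idi1 did. It had 0.835, 0.901, 26.4 and 20.9 TPM in adult replicates 1 to 4 and 1.17, 0.880, 22.1 and 24.0 TPM in aged ones. The 4 libraries over 10 summed Y-linked TPM thus lay above the other 4 in both age groups. The labels give no sex, and no test of the split was made.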
